A study of Homo sapiens with 6 samples.

Results

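The 32 genes described here act in the G2 phase of the cell cycle and in mitosis, and were found in the count table by their gene symbols. All 32 were present among its 28675 genes. RNA was sequenced from MDA-MB-231 cells, a human breast cancer line that lacks estrogen receptor, progesterone receptor and HER2 amplification, in 3 libraries from cells overexpressing LARP6 and 3 libraries from cells with a no-load control. LARP6 belongs to the La-related proteins, which bind RNA, and the study asked which transcripts it targets in triple-negative breast cancer. The labels give no vector, promoter, clone, dose or time for the overexpression, no second cell line, and do not say whether each library is a culture of its own. The p-values therefore measure library-to-library spread, part or all of which may be technical.

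Cells prepare for division in G2 by building up cyclin B and the kinase CDK1, whose joint activity starts mitosis once the CDC25 phosphatases have removed inhibitory phosphates. The Polo and Aurora kinases then drive the maturation of the spindle, and the spindle checkpoint holds back the anaphase-promoting complex until every chromosome is attached. Most of these genes are transcribed together in a wave, with FOXM1 and the MuvB complexes acting at cell cycle elements in their promoters, so their summed mRNA level is widely used as a readout of how many cells of a culture are cycling. In bulk RNA, a different number of cells in G2 and mitosis and a different level of mRNA per cell cannot be told apart.

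Each library had 29409101 to 33387050 counts. LARP6 itself was at 1995, 2198 and 2131 CPM (counts scaled by library size, adjusted with TMM) in the LARP6 libraries, against 44.2, 40.7 and 43.3 CPM in the control libraries, so each library matched its label. VIM, CD44, AXL, CAV1 and EGFR, chosen as genes expressed in this line, were present in both groups. The epithelial genes EPCAM and CDH1 were detected at lower levels. EPCAM averaged 15.3 CPM in each group, and CDH1 averaged 7.29 CPM in LARP6 libraries and 7.92 CPM in control libraries. ESR1 had 1 count over the 6 libraries and the leukocyte gene CD3E had 1 count, while ERBB2 averaged 54.9 CPM in LARP6 libraries and 57.2 CPM in control libraries. Control library 3 had the highest share of mitochondrial counts, 7.91%. Control libraries 1 and 2 were at 7.57% and 7.405%. The LARP6 libraries were at 7.17%, 7.399% and 7.26%, so the groups came close but did not overlap.

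Many of the members share promoter motifs. Genes of the mitotic wave are known for such promoter elements, so the comparison with all genes describes the list and is not a separate finding. A promoter window of 250 bases before to 50 bases after the transcription start was taken from RefSeq (GRCh38.p14) for 26 of the 32 members, with the first listed start where a gene had several. The promoters of AURKA, FOXM1, TTK, UBE2C, TPX2 and BIRC5 were not analysed here. The windows were searched on both strands for TTTGAA, the core of the cell cycle genes homology region (CHR) that MuvB complexes bind, and for CCAAT, the box that the factor NF-Y binds. TTTGAA was in 17 of 26 member windows (65.4%), against 15.4% of the first windows of all 27305 genes. CCAAT was in 20 of 26 (76.9%), against 35.7% of all genes, and at least 2 copies were in 13 of 26, against 11.3% of all genes. Both motifs were in 15 of 26 member windows (57.7%), against 6.1% of all genes. A match describes letters only and does not show that a factor binds there.

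The promoters of 4 members are given from 5′ to 3′ on the strand of the gene. BUB1B was chosen because it was the only member called. CDK1, CCNB2 and PLK1 were chosen as genes of mitotic entry whose LARP6 and control libraries did not overlap. CDC25B is a further gene of mitotic entry without overlap. Its window is not printed here and held 0 TTTGAA and 0 CCAAT. Capitals mark TTTGAA and CCAAT on either strand. The windows are chr15:40160819-40161118 for BUB1B, chr10:60778081-60778380 for CDK1, chr15:59104896-59105195 for CCNB2 and chr16:23678639-23678938 for PLK1, all on the plus strand of GRCh38.p14.
BUB1B: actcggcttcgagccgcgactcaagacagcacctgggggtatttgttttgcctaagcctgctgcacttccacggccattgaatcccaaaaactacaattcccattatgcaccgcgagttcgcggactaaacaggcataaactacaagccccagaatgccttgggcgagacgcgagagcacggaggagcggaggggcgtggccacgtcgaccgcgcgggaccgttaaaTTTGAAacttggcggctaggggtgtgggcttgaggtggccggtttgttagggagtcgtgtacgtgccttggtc
CDK1: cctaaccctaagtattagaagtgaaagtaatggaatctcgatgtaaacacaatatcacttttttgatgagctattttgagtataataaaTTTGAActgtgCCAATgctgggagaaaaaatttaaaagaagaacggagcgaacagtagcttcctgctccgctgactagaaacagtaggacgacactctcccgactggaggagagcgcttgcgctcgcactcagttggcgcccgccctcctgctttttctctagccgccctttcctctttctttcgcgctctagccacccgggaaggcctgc
CCNB2: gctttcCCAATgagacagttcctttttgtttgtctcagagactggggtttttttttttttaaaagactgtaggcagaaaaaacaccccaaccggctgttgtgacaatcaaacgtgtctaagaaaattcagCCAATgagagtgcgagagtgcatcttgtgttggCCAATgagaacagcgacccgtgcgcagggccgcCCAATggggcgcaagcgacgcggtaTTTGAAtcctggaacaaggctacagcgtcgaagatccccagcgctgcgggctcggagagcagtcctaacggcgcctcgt
PLK1: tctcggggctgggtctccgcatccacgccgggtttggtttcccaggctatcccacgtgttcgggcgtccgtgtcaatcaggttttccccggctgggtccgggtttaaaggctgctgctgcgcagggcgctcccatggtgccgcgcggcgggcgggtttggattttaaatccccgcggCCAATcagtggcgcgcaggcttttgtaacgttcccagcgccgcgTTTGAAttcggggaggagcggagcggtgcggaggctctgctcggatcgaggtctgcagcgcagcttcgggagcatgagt
TTTGAA began 23 bases before the start in BUB1B and 29 bases before it in both CCNB2 and PLK1, while in CDK1 it began 161 bases before the first listed start. CCNB2 held 4 CCAAT boxes, CDK1 and PLK1 held 1 each, and BUB1B held 0. A relation between these motifs and the fold changes was not tested.

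The mitotic genes were well expressed in both groups. On the authors' FPKM scale, which divides by gene length and allows genes to be compared, UBE2C, the E2 enzyme that works with the anaphase-promoting complex, was the highest at 196 ± 2.28 FPKM in LARP6 libraries and 197 ± 5.63 FPKM in control libraries (SD, n = 3 each). CDC20, the activator of that complex, followed at 115 ± 0.467 FPKM in LARP6 libraries and 115 ± 3.14 FPKM in control libraries (SD, n = 3 each). CCNB1, cyclin B1, was at 111 ± 2.33 FPKM in LARP6 libraries and 108 ± 0.699 FPKM in control libraries (SD, n = 3 each). The ranges of CDC20 and CCNB1 were close but did not overlap in either group, with a highest CCNB1 value of 113.59 FPKM and a lowest CDC20 value of 114.39 FPKM in LARP6 libraries, and 108.11 and 111.83 FPKM in control libraries. At the low end, HMMR, a spindle assembly protein gene, was at 1.66 ± 0.300 FPKM in LARP6 libraries and 1.51 ± 0.295 FPKM in control libraries. CENPE, the kinetochore motor gene, was at 0.823 ± 0.133 FPKM in LARP6 libraries and 0.930 ± 0.358 FPKM in control libraries (SD, n = 3 each).

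**Figure D1:**
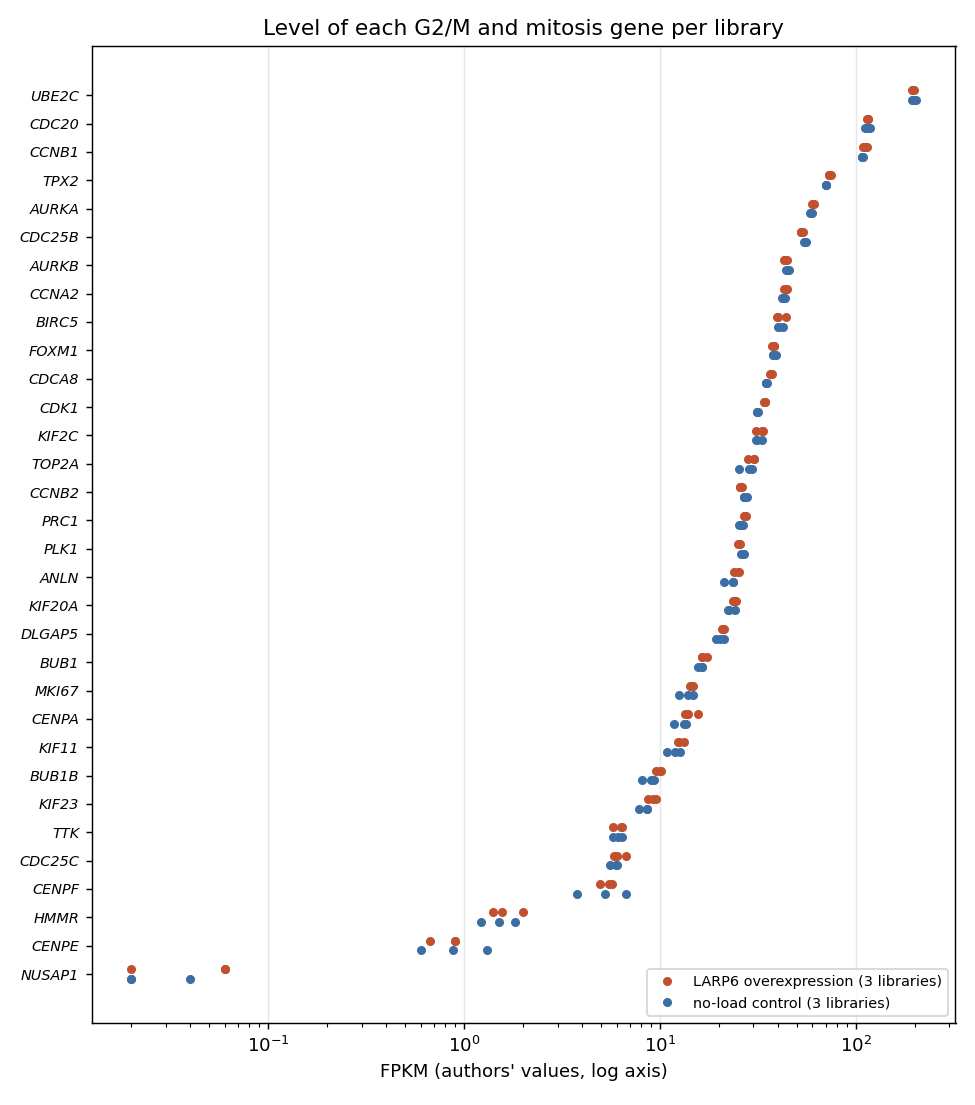
FPKM of each member in each library (log axis), LARP6 libraries above control libraries in each row, genes ordered by their mean. UBE2C is highest near 196 FPKM and NUSAP1 lowest, and the points of both groups lie close together for most genes.

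NUSAP1, a spindle microtubule-binding protein gene, had 7, 8 and 3 counts in the LARP6 libraries and 3, 5 and 3 counts in the control libraries, and was the only member that did not pass the low-count filter. In GENCODE v29 an overlapping gene on the same strand, ENSG00000285920 (RP11-16O9.3 in the count table), shares 62.2% of the exonic bases of NUSAP1. That gene was at 122, 118 and 116 CPM in the LARP6 libraries, against 116, 114 and 109 CPM in the control libraries. Summed with NUSAP1, a step chosen after the data were seen, the pair averaged 119 ± 3.37 CPM in LARP6 libraries and 113 ± 3.97 CPM in control libraries (SD, n = 3 each). The log2 fold change of this sum was 0.07 ± 0.03 (SE), with an adjusted p = 0.223 in edgeR. How the authors' counting assigned reads to overlapping genes is not given in the sources used here, so the row called NUSAP1 is not a measure of this gene's level. PRC1 shares 57.6% of its exonic bases with another gene on its strand and BUB1B and CENPA share 10.2% and 7.0%, so their counts are less certain. On the opposite strand, FOXM1 shares 15.9%, PLK1 11.6%, CCNA2 9.1% and CDC25C 8.8% of their exonic bases with another gene. Over the 6 libraries that gene had 2493 counts against 39210 for FOXM1, and 206 against 25805 for PLK1. It had 11431 counts against 24928 for CCNA2, and 9195 against 4206 for CDC25C. The strand setting of the counting is not given.

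The summed level of the mitotic genes was close in LARP6 and control libraries, and whether the groups overlapped depended on the scaling. The 32 members added up to 4244, 4253 and 4211 CPM in the LARP6 libraries, against 4237, 4219 and 4149 CPM in the control libraries. On this TMM scale the groups overlapped, with LARP6 library 3 below both control library 1 and control library 2. The sums averaged 4236 ± 22.2 CPM in LARP6 libraries and 4202 ± 46.3 CPM in control libraries (SD, n = 3 each), so the difference was smaller than the SD of the controls. As a share of all counts, which scales by library size only, the members took 0.431%, 0.428% and 0.42202% in LARP6 libraries, against 0.42177%, 0.419% and 0.408% in control libraries. On that scale every LARP6 library lay above every control library, although LARP6 library 3 and control library 1 differed by less than their exact 95% binomial intervals, which cover counting error only. The share averaged 0.427 ± 0.00453% in LARP6 libraries and 0.416 ± 0.00736% in control libraries (SD, n = 3 each), a difference larger than either SD. Without CENPE and CENPF, left out after the data were seen, the TMM-scaled sum averaged 4156 ± 15.6 CPM in LARP6 libraries and 4121 ± 25.6 CPM in control libraries (SD, n = 3 each), also larger than either SD, with overlapping groups.

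Gene by gene, 1 of the 31 members tested passed an edgeR adjusted p below 0.05 over all 16226 genes tested, as higher in LARP6 libraries, and 0 passed as lower. By the same rule 6.03% of all genes were called, 2.43% as higher and 3.60% as lower. Scaling by library size only turned that split round, with 687 genes higher and 303 lower, and called 4 members as higher and 0 as lower. An unadjusted p below 0.05 was found for 9 of the 31 (29.03%), against 19.0% of all genes tested and 23.7% of those at 5 CPM or more. These were BUB1B, CDK1, ANLN, KIF23, CENPA and KIF11 with positive fold changes and CCNB2, CDC25B and PLK1 with negative ones. DESeq2 called 0 members as higher and 1, CDC25B, as lower. The median log2 fold change of the members was 0.03, against 0.00 over all genes tested, and 21 of 31 had a positive log2 fold change (67.7%), against 51.2% of all genes tested. Fitted changes were small, with 29 of 31 members within 10% of the control level. For 28 of the 31, the 95% interval of the fold change lay inside 1.2-fold in either direction, and for 17 it lay inside 1.1-fold. The 3 members with wider intervals were HMMR, CENPE and CENPF. Over the 31 members the log2 fold change ran against transcript GC content with a Spearman's rho of -0.43, and the same value over 11036 genes at 5 CPM or more was -0.46. These are correlations across genes, which share libraries and are not independent replicates.

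**Figure D2:**
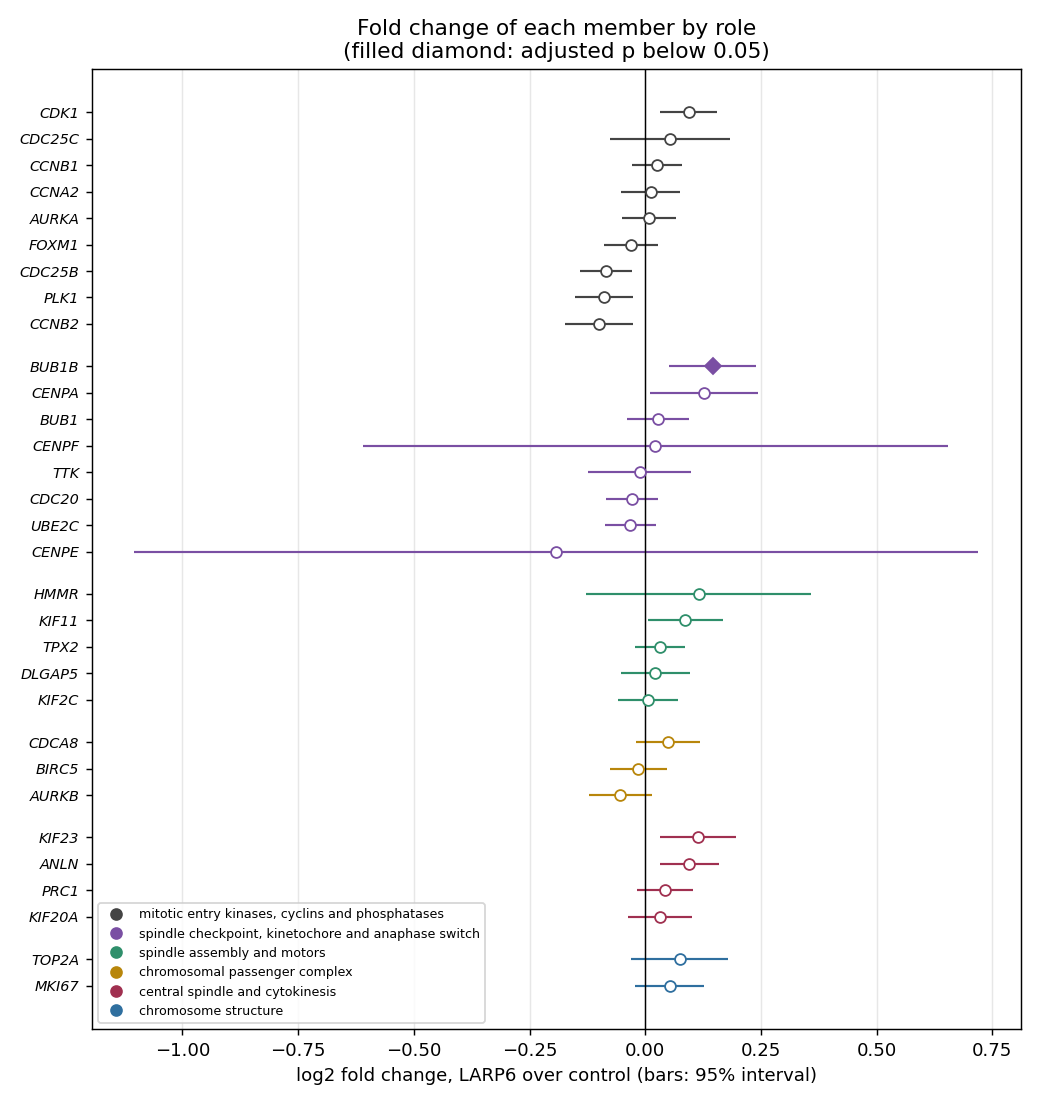
Log2 fold change of LARP6 over control for the 31 members tested, grouped by role, with 95% intervals from edgeR. BUB1B (filled diamond, 0.15) is the member with an adjusted p below 0.05, and the intervals of CENPE and CENPF are the widest.

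Among the 9 genes of mitotic entry, none passed the test. CDK1, the kinase at the centre of mitotic entry, was at 152, 152 and 149 CPM in the LARP6 libraries, against 142, 140.5 and 142 CPM in the control libraries. The groups did not overlap and each was tight, and the difference of 0.09 ± 0.03 (SE) on the log2 scale had an edgeR adjusted p = 0.0519, just above the 0.05 threshold. None of its cyclin partners passed the test, and their fold changes differed in sign. CCNB1 was at 299, 310 and 305 CPM in LARP6 libraries, against 299, 298 and 301.5 CPM in control libraries, with overlapping groups (log2 fold change 0.03 ± 0.03, SE, edgeR adjusted p = 0.669). CCNB2, cyclin B2, was at 79.6, 80.8 and 79.3 CPM in LARP6 libraries, against 84.1, 87.4 and 85.3 CPM in control libraries, without overlap (log2 fold change -0.10 ± 0.04, SE, edgeR adjusted p = 0.0973). CCNA2, cyclin A2, averaged 135 ± 2.72 CPM in LARP6 libraries and 134 ± 2.48 CPM in control libraries (SD, n = 3 each).

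CDC25B, a phosphatase that activates CDK1, was at 235.5, 229 and 229 CPM in LARP6 libraries, against 244, 243 and 249 CPM in control libraries. Every LARP6 library lay below every control library, and the log2 fold change was -0.09 ± 0.03 (SE, edgeR adjusted p = 0.0518). PLK1, the Polo kinase, was at 134, 136 and 136 CPM in LARP6 libraries, against 146, 144 and 142 CPM in control libraries, again without overlap (log2 fold change -0.09 ± 0.03, SE, edgeR adjusted p = 0.0751). Over 21 alternative fits, both genes kept a negative fold change. That of CDC25B ran from -0.10 to -0.04, with a call as lower in 2 fits. That of PLK1 ran from -0.10 to -0.05, with a call as lower in 1 fit. In AURKA, the spindle pole kinase, the groups overlapped, with 198, 200.2 and 197 CPM in LARP6 libraries and 196, 195 and 201 CPM in control libraries (log2 fold change 0.01 ± 0.03, SE, edgeR adjusted p = 0.917). FOXM1, the transcription factor of the mitotic wave, was at 212, 207 and 211 CPM in LARP6 libraries and 210.05, 212 and 221 CPM in control libraries, with overlap (log2 fold change -0.03 ± 0.03, SE, edgeR adjusted p = 0.627). CDC25C, a second phosphatase for CDK1, averaged 23.2 ± 1.67 CPM in LARP6 libraries and 22.3 ± 1.05 CPM in control libraries (SD, n = 3 each).

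In the checkpoint and kinetochore group BUB1B rose and 7 members were not called. BUB1B encodes BUBR1, a component of the mitotic checkpoint complex that inhibits CDC20. It lies on chromosome 15 from 40161023 to 40221136 on the plus strand of GRCh38 (GENCODE v29). Its level was 51.0, 48.1 and 49.999 CPM in LARP6 libraries, against 45.7, 47.7 and 41.5 CPM in control libraries. The groups did not overlap, but LARP6 library 2 and control library 2 were close to each other, and control library 3 was the lowest. The means were 49.7 ± 1.44 CPM in LARP6 libraries and 45.0 ± 3.14 CPM in control libraries (SD, n = 3 each), and the fit gave 10.6% more in LARP6 libraries (0.15 ± 0.05 on the log2 scale, SE, edgeR adjusted p = 0.0456). The call held without control library 2 (adjusted p = 0.0234) and was lost without each of the other libraries, with an adjusted p of 0.365 when control library 3 was left out, 0.0568 for control library 1, and 0.215, 0.0610 and 0.0961 for LARP6 libraries 1, 2 and 3. It was also lost with DESeq2 (adjusted p = 0.127) and with offsets for GC content and length (adjusted p = 0.144).

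The genes that work beside BUB1B in the checkpoint and at the kinetochore were not called. BUB1, the related checkpoint kinase, averaged 118 ± 4.07 CPM in LARP6 libraries and 116 ± 2.93 CPM in control libraries (SD, n = 3 each). TTK, the kinase MPS1 that starts the checkpoint, was at 32.8, 32.8 and 29.5 CPM in LARP6 libraries and 31.9, 33.7 and 30.3 CPM in control libraries, with overlap (log2 fold change -0.01 ± 0.06, SE, edgeR adjusted p = 0.943). CDC20, the protein the checkpoint restrains, was at 261, 260.5 and 258 CPM in LARP6 libraries and 270.2, 258 and 267 CPM in control libraries, with overlap (log2 fold change -0.03 ± 0.03, SE, edgeR adjusted p = 0.642). UBE2C averaged 283 ± 2.81 CPM in LARP6 libraries and 289.7 ± 9.49 CPM in control libraries (SD, n = 3 each). CENPA, the centromeric histone H3 variant, was at 34.4, 30.4 and 29.4 CPM in LARP6 libraries and 26.3, 30.2 and 29.7 CPM in control libraries. Those groups overlapped (log2 fold change 0.13 ± 0.06, SE, edgeR adjusted p = 0.209).

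CENPE and CENPF, which encode large kinetochore proteins, varied far more among the control libraries than between the groups. CENPE was at 10.02, 10.1 and 7.503 CPM in LARP6 libraries, against 14.8, 9.96 and 6.89 CPM in control libraries. CENPF was at 72.0, 74.9 and 64.9 CPM in LARP6 libraries, against 88.7, 70.0 and 50.3 CPM in control libraries. In both genes control library 1 was the highest and control library 3 the lowest of all 6 libraries. The coefficient of variation of CENPE was 16.0% in LARP6 libraries and 37.7% in control libraries, and that of CENPF was 7.33% in LARP6 libraries and 27.6% in control libraries. Over the 31 members tested, the median was 1.93% in LARP6 libraries and 3.43% in control libraries. Over 11072 genes tested at 5 CPM or more, it was 3.62% in LARP6 libraries and 3.84% in control libraries. The log2 fold change was -0.19 ± 0.34 (SE, edgeR adjusted p = 0.834) for CENPE and 0.02 ± 0.23 (SE, edgeR adjusted p = 0.974) for CENPF. Without control library 3, CENPE was called as lower by edgeR, at -0.43 ± 0.10 (SE, adjusted p = 0.00192) on the log2 scale, and without control library 1 it had the opposite sign, at 0.13 ± 0.13 (SE, adjusted p = 0.636). CENPF was not called in either case, at 0.24 without control library 1 and -0.17 without control library 3 on the log2 scale.

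CENPE and CENPF, the members that differed most between control library 1 and control library 3, have the longest transcripts of the members after MKI67. The log2 ratio of control library 1 over control library 3 was 1.101 for CENPE, whose longest annotated transcript has 8612 bases, and 0.82 for CENPF, with 10307 bases. It was 0.28 for HMMR, 0.21 for MKI67 and 0.21 for TOP2A, against -0.09 for UBE2C, with 914 bases. Across the 31 members its Spearman's rho with transcript length was 0.71 and with GC content -0.59, and across 11036 genes at 5 CPM or more these values were 0.13 and -0.20. The part of library quality in this spread was not tested, and the intervals of CENPE and CENPF are too wide to tell a rise from a fall.

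**Figure D3:**
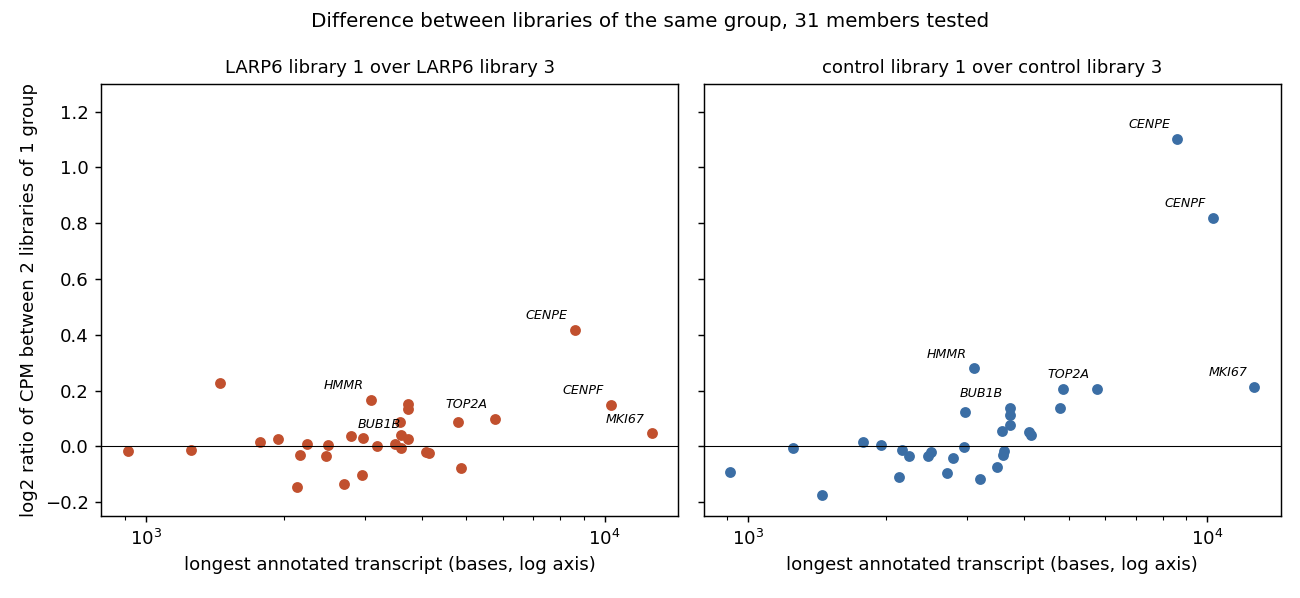
Log2 ratio of CPM between libraries 1 and 3 of a group against transcript length, LARP6 libraries on the left and control libraries on the right, 1 point for each of the 31 members tested. In the controls CENPE (1.101) and CENPF (0.82) stand above the other members, while in the LARP6 libraries they are at 0.42 and 0.15.

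Of 5 tested members that build the spindle, none was called. KIF11, the motor that pushes spindle poles apart, was at 75.3, 73.5 and 79.3 CPM in LARP6 libraries, against 76.4, 72.4 and 66.3 CPM in control libraries, with overlap (log2 fold change 0.09 ± 0.04, SE, edgeR adjusted p = 0.221). TPX2, which activates AURKA on the spindle, averaged 297 ± 3.64 CPM in LARP6 libraries and 291 ± 1.78 CPM in control libraries (SD, n = 3 each), without overlap but only 2.22% apart by the fit. The microtubule-depolymerizing motor gene KIF2C and the spindle protein gene DLGAP5 had log2 fold changes of 0.01 ± 0.03 and 0.02 ± 0.04 (SE). HMMR, at 7.33 ± 1.34 CPM in LARP6 libraries and 6.78 ± 1.31 CPM in control libraries (SD, n = 3 each), differed by less than the SD of either group. None of the 3 chromosomal passenger genes was called. AURKB, the kinase of this complex, averaged 110 ± 1.81 CPM in LARP6 libraries and 115 ± 2.20 CPM in control libraries (SD, n = 3 each). Its partners CDCA8 (borealin) and BIRC5 (survivin) had log2 fold changes of 0.05 ± 0.04 and -0.01 ± 0.03 (SE).

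The 4 genes of the central spindle and cytokinesis all had positive log2 fold changes, and none was called. ANLN, the scaffold of the contractile ring, was at 171, 169 and 161 CPM in LARP6 libraries, against 161, 161 and 147 CPM in control libraries. LARP6 library 3 lay among the control libraries (log2 fold change 0.10 ± 0.03, SE, edgeR adjusted p = 0.0576). KIF23, the motor subunit of centralspindlin, was at 70.4, 68.3 and 64.2 CPM in LARP6 libraries, against 64.0, 64.4 and 59.1 CPM in control libraries, with the same overlap (log2 fold change 0.11 ± 0.04, SE, edgeR adjusted p = 0.0869). PRC1, which bundles midzone microtubules, and KIF20A, the motor MKLP2, had log2 fold changes of 0.04 ± 0.03 and 0.03 ± 0.04 (SE). Without LARP6 library 3, CDK1, ANLN and KIF23 were called as higher (edgeR adjusted p = 0.0487, 0.0160 and 0.0274), and BUB1B was not. Without control library 1, ANLN was called as well (edgeR adjusted p = 0.0304), while without control library 3 its log2 fold change was 0.05.

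The common proliferation markers overlapped between the groups. MKI67, which encodes Ki-67, was at 213, 206 and 206.5 CPM in LARP6 libraries, against 214, 205 and 185 CPM in control libraries. TOP2A, the topoisomerase that untangles sister chromosomes, was at 217, 217 and 202 CPM in LARP6 libraries, against 213, 207 and 184 CPM in control libraries. In both genes control library 3 was the lowest and the other libraries overlapped. The log2 fold changes were 0.05 ± 0.04 (SE, edgeR adjusted p = 0.476) for MKI67 and 0.08 ± 0.05 (SE, edgeR adjusted p = 0.451) for TOP2A. TOP2A was called as higher without control library 1 (log2 fold change 0.12 ± 0.04, SE, edgeR adjusted p = 0.0369).

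**Figure D4:**
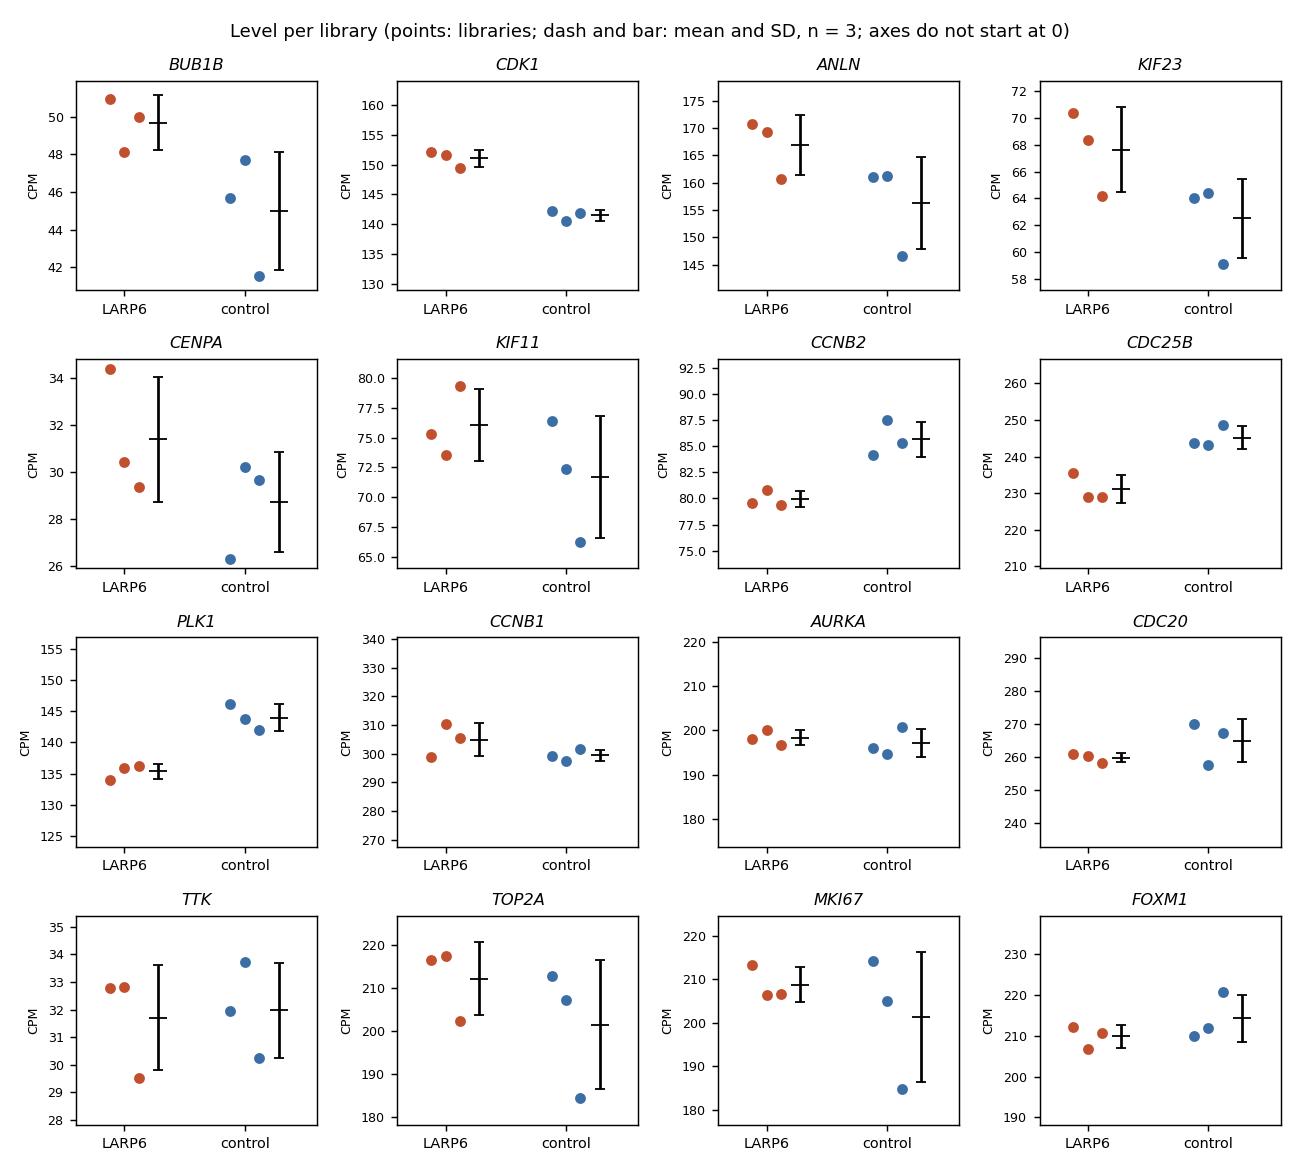
CPM per library for 16 members, LARP6 libraries left of control libraries, with mean and SD (n = 3), on axes that do not start at 0. CDK1 lies higher and CCNB2, CDC25B and PLK1 lie lower in all 3 LARP6 libraries, and control library 3 is the lowest point in BUB1B, ANLN, KIF23, KIF11, TOP2A and MKI67.

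Across all members tested, the libraries of the groups did not overlap for 9 of 31 (29.03%), 5 with LARP6 above and 4 with LARP6 below, against 22.3% of all genes tested. The 5 above were BUB1B, CDK1, TPX2, CDCA8 and PRC1, and the 4 below were CCNB2, CDC25B, PLK1 and AURKB. The share is near that over all genes, and the split depended on the scale. On the FPKM scale the groups of AURKB overlapped. Those of CCNB1, AURKA, ANLN and KIF23, which overlapped in CPM, did not overlap in FPKM, with LARP6 above in each.

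Around these genes stand 159 others from 8 lists of the cell cycle, all of which were tested, and 9 passed as higher and 8 as lower (142 were not called). Over all genes tested, 2.43% passed as higher and 3.60% as lower, and the lists' counts are to be read against these shares. Their median log2 fold change was 0.03. The split of higher against lower calls was 15 against 3 with scaling by library size only and 8 against 1 with GC and length offsets. Of 27 other kinetochore and checkpoint genes, 4 rose and 1 fell. DSN1, a subunit of the Mis12 kinetochore complex, rose to 64.2 ± 0.815 CPM in LARP6 libraries, against 55.7 ± 1.09 CPM in control libraries (SD, n = 3 each), which is 0.20 ± 0.04 on the log2 scale (SE, edgeR adjusted p = 0.000367). KNTC1, which encodes the Rod subunit of the RZZ checkpoint complex, and ZWINT, whose protein recruits that complex to kinetochores, rose by 18.2% and 9.995% (edgeR adjusted p = 0.00129 and 0.00336). The calls of DSN1, KNTC1 and ZWINT held without any single library and with GC and length offsets. The other call as higher, CENPK, was lost without LARP6 library 1 or 2 or control library 3 (edgeR adjusted p = 0.134, 0.127 and 0.202) and with the offsets (0.0712). MAD1L1, the gene that fell, was lost without every library except LARP6 library 3, with an edgeR adjusted p of up to 0.215, and with the offsets (0.420); both genes are named after their values were seen.

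Of 21 other spindle and cytokinesis genes, 2 rose and 0 fell. They were ECT2, the exchange factor that activates RhoA at the division site, at 87.0 ± 1.42 CPM in LARP6 libraries and 77.4 ± 5.02 CPM in control libraries, and RACGAP1, the second subunit of centralspindlin beside KIF23, at 121 ± 3.08 CPM in LARP6 libraries and 111 ± 2.20 CPM in control libraries (SD, n = 3 each). The log2 fold changes were 0.17 ± 0.04 (SE, edgeR adjusted p = 0.00157) for ECT2 and 0.13 ± 0.03 (SE, edgeR adjusted p = 0.00950) for RACGAP1. The call of ECT2 was lost without control library 3 (adjusted p = 0.0795). That of RACGAP1 was lost without LARP6 library 1 or 2 or control library 2 (adjusted p = 0.0582, 0.103 and 0.0567), and both calls held with GC and length offsets.

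The remaining lists had few calls, most of them lost when a library was left out. Of 17 genes of the anaphase-promoting complex and its regulators, ANAPC4 rose by 15.6% and the E2 enzyme gene UBE2S fell by 6.30%. Of 20 condensin, cohesin and separase genes, the condensin II subunit gene NCAPG2 rose by 7.88%. These calls were lost without each of 4 or 5 of the libraries, with an edgeR adjusted p of up to 0.181 for ANAPC4 and 0.198 for UBE2S without LARP6 library 1 and 0.252 for NCAPG2 without the same library. None of 16 mitotic entry regulators and none of 12 DREAM and MuvB genes was called, with medians of 0.04 and 0.02 on the log2 scale. An unadjusted edgeR p below 0.05 was found for 4 and 3 of them, 25% of each list. That share was 19.0% over all genes tested and 23.7% over those at 5 CPM or more. In the list of G1/S and replication genes 0 rose and 4 of 32 fell, with a median log2 fold change of -0.01. CDT1, the licensing factor, fell by 11.1%, and the helicase subunit genes MCM5 and MCM2 fell by 9.03% and 8.68%. With GC and length offsets MCM5 was still called and CDT1 and MCM2 were not (edgeR adjusted p = 0.0470, 0.110 and 0.132). CDT1 was called without any single library, while MCM5 was not without LARP6 library 1 or 2 (adjusted p = 0.0545 and 0.0531) and MCM2 was not without LARP6 library 2 or control library 2 (adjusted p = 0.0901 and 0.0652). Among the 14 genes of the list of CDK inhibitors and related genes, RB1, which holds back entry into S phase, rose by 12.5%, and the CDK inhibitor gene CDKN1C fell by 16.9%. Both calls were lost without 4 of the 6 libraries taken singly, with an edgeR adjusted p of up to 0.168 for RB1 and 0.158 for CDKN1C.

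**Figure D5:**
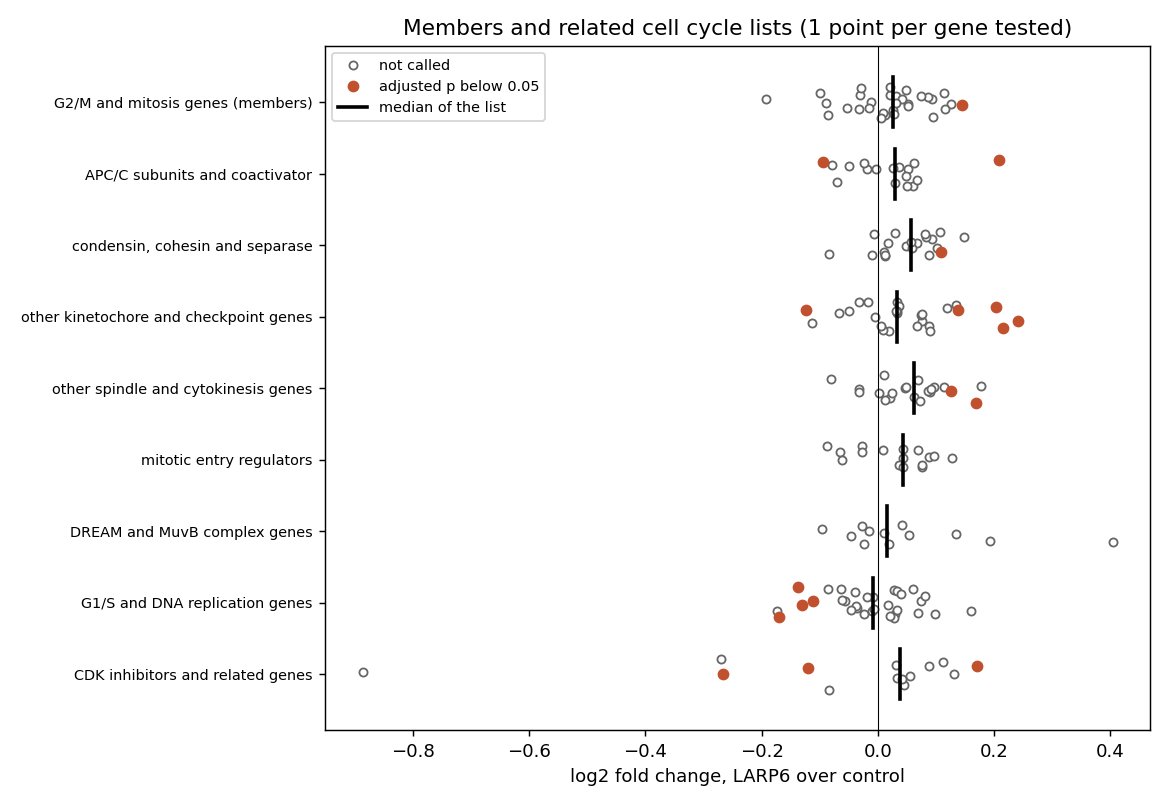
Log2 fold change of LARP6 over control for the members and for 8 related lists, 1 point per gene tested, with the median of each list as a bar. The medians lie between -0.01 and 0.06, and the called genes (filled) are 1 of the 31 members tested and 17 of 159 related genes.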

How the data were processed

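Gene expression was measured in 3 LARP6 and 3 control libraries made with a strand-keeping mRNA kit and sequenced as paired reads, per the labels' protocols. The authors deposited whole-number read counts for each gene and, in a second table, FPKM values, a unit scaled by gene length and sequencing depth. Per the submitters' processing notes the tools were HISAT2 and DESeq2 and the build GRCh38, with no version named. Which program counted the reads, with which annotation and strand setting, is not given in the sources used here. FPKM values cover 28339 genes.

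Counts were fitted as deposited, over the whole table, with the robust quasi-likelihood test of edgeR 4.0.16 (R 4.3.3), edgeR's expression filter and TMM scaling, with no covariate. Adjusted p-values are Benjamini-Hochberg over 16226 genes, and calls are at 0.05. CPM values use TMM-scaled library sizes. Intervals are at 95% from the test's standard error and degrees of freedom. The code was checked on simulated counts. No pair of libraries in a group agreed within sampling noise (chi-square 2.05 to 3.62 per gene over 16157 genes), so none was treated as deposited in duplicate; this does not show that they are separate cultures.

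All 32 members are accounted for. Values per library are given for members past the threshold or with an unadjusted p below 0.05 and for 9 genes that stand for the main roles; of each related list up to 3 called genes with the smallest p are named. The result of 1 of these genes is not reported here. The members and lists were chosen with earlier results of these data known. Coordinates, transcript length, GC content and overlaps come from GENCODE v29 on GRCh38, which gave length and GC for 98.9% of tested genes. Alternatives were other scalings, filters, tests (DESeq2 1.42.0, limma 3.58.1) and values, a replicate block, GC and length offsets, and each library left out. Replicate numbers were not taken to pair libraries.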

Additional observations from a re-analysis of the deposited data

How the results depend on the processing

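Scaling by RLE or upper quartile, leaving LARP6 out of the counts, limma-voom, and summing NUSAP1 with its overlapping gene (chosen after seeing the data) each gave 1 member higher and 0 lower. The members higher were 4 with library size only and 3 when genes needed CPM above 1 in at least 3 libraries. They were 0 at an adjusted p below 0.01, no low-count filter, DESeq2 (1 lower), each of 3 limma fits on log2 FPKM, and GC and length offsets, with or without the replicate block. Leaving out each library gave 0 to 3 higher and 0 to 1 lower. With the replicate block, 5 members were higher and 2 lower. Same-numbered libraries' deviations correlated at 0.08, 0.04 and 0.21. LARP6 libraries 1 and 3 correlated best with the control library of their own number. LARP6 library 2 did not, at 0.04 against 0.06 with control library 1. With 3 libraries per group these values cannot decide whether same-numbered libraries were handled together.

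The related genes, 9 higher and 8 lower, became 5 and 2 at 0.01, 15 and 3 with library size only, 14 higher with the replicate block, 5 higher with DESeq2, 0 and 0 on log2 FPKM with either pseudocount, 2 and 0 on filtered FPKM, 1 lower with GC and length offsets (also with the block), and 4 to 12 higher and 2 to 7 lower without a library. The members' median log2 fold change, 0.03, was 0.0519 with library size only, where the median of all genes was 0.03 in place of 0.00, and 0.05001, 0.0514 and 0.0528 on log2 FPKM with pseudocounts 1 and 0.1 and with a minimum mean FPKM of 1; without a library it ran from 0.02 to 0.04. The cause of the other shifts was not tested. BUB1B had a positive fold change in 21 of 21 alternatives, was called in 9 of them, and had an adjusted p of 0.0212 to 0.431 across them. HMMR had 181 to 268 counts per library, with a coefficient of variation of 18.2% in LARP6 libraries and 19.3% in control libraries. The cause of its wide interval was not tested.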

Other observations

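Of the 32 members, 5 lie on chromosome 15, which also carries LARP6: BUB1B, NUSAP1, CCNB2, KIF23 and PRC1. Of the 4 that were tested, BUB1B had a log2 fold change of 0.15 ± 0.05 (SE), KIF23 of 0.11 ± 0.04, PRC1 of 0.04 ± 0.03 and CCNB2 of -0.10 ± 0.04, so they did not share a direction.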
